A study of Mus musculus with 8 samples.

Results

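The 10 genes described here, Gbp2, Gbp2b, Gbp3, Gbp4, Gbp5, Gbp7, Igtp, Irgm1, Irgm2 and Iigp1, encode GTPases that interferon-gamma induces in the mouse, and they were taken by name from the 24787 genes listed in the count tables. All 10 were measured. They were followed in single cells of MC38 tumors, which grow from a mouse colon carcinoma line, in mice killed 24 hours after dosing. The 3 treatments compared were saline (3 tumors), free R848, a small-molecule agonist of Toll-like receptors 7 and 8 (3 tumors), and medium R848-BPDs, bottlebrush polymers from which R848 is released at an intermediate rate (2 tumors). Every tumor carried the same line, 1 tumor came from each mouse, and CD45+ cells were loaded onto the Seq-Well arrays in excess of CD45- cells, so the numbers of cells per class are not those of the intact tumor.

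Interferon-gamma, made mainly by activated T and NK cells, binds the Ifngr1 and Ifngr2 receptor chains and acts through the Jak1 and Jak2 kinases on gamma-activated sites (GAS) in promoters. It also raises Irf1, a factor that binds interferon-stimulated response elements (ISRE). Type I interferons act on ISRE as well. Guanylate-binding proteins (Gbp genes) coat bacteria and the vacuoles in which pathogens hide and help to start inflammasome signalling, whereas the immunity-related GTPases are split into regulators that protect the cell's own membranes (Irgm1, Irgm2 and Igtp) and effectors that break pathogen vacuoles (Iigp1). In macrophages and other cells of a tumor the same genes are widely read as a sign that interferon has been sensed.

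Of the 10791 barcodes in the 8 libraries, 9886 passed the limits on genes, UMIs and mitochondrial RNA. Among those that passed, 59 cells carried 1 of 23 barcodes that occurred in more than 1 library (9 of these barcodes in all 8). They were left out, which left 9827 cells. Libraries held 5867590 to 12422614 UMIs, and the median per cell ranged from 3247 to 6928. Classes were gated on marker genes that exclude the 10 members, with thresholds chosen after the marker distributions had been seen: 5328 monocyte/macrophage-like, 1440 MC38-like, 898 NK-like, 386 DC-like and 217 T-like cells, while 1126 cells that passed the markers of several classes were set aside. Each class held the markers of its own name, from a median of 1416 CPM (UMIs of the genes per 1000000 UMIs) over the NK list to 9669 CPM over the macrophage list. Lists of other classes were also counted. The monocyte list, whose Ly6c2 and Ccr2 lymphocytes also express, came to 709 to 1759 CPM in T-like and 859 to 1434 CPM in NK-like cells, and the fibroblast list to 698 to 1841 CPM in MC38-like cells. In DC-like cells the macrophage list came to 54.1 to 269 CPM, the T list to 0 to 33.6 CPM and the NK list to 0 to 6.26 CPM per tumor. The osteoclast list (Ctsk, Acp5 and Mmp9) came to 23.7 to 313 CPM in DC-like and 111 to 1218 CPM in monocyte/macrophage-like cells. No label gives a batch or processing date, so batch and treatment cannot be told apart.

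In monocyte/macrophage-like and MC38-like cells the members' own levels set single tumors apart within each treatment. The summed level of the members in monocyte/macrophage-like cells of saline replicate 2 was 2235 CPM, against 1131 and 1045 CPM in saline replicates 1 and 3, and in its MC38-like cells it was 2585 CPM, against 1106 and 1341 CPM. It ranked among the 3 highest of the 8 tumors for 6 of 9 members in monocyte/macrophage-like cells and for 7 of 9 in MC38-like cells. Free R848 replicate 1 (2928 CPM in monocyte/macrophage-like cells, against 1219 and 1714 CPM) and medium R848-BPD replicate 2 (2507 CPM, against 1404 CPM) were as far from their groups, both among the 3 highest for 9 of 9 members in monocyte/macrophage-like cells. In T-like cells free R848 replicate 1 was instead the lowest of the 8 tumors (1040 CPM, against 2343 and 2382 CPM in its group). Saline replicate 2 was the lowest saline tumor there (1419 CPM, against 1902 and 1781 CPM). Medium R848-BPD replicate 2 stayed above replicate 1 (2433 against 2176 CPM). In NK-like cells all 3 were the highest of their groups. DC-like cells were few in saline replicate 2 (12 cells, 59449 UMIs), with a summed level of 1132 CPM, against 1163 and 1131 CPM in the other saline tumors. All 8 tumors enter every comparison, and each was also left out in turn. Since saline replicate 2 was high in the members in monocyte/macrophage- and MC38-like cells, calls gained there without it depend on the values being tested. In DC-like cells it held the lowest Gbp7 (18.3 CPM) and the highest Gbp4 (128 CPM) of the saline tumors, so the same holds. All such calls are given as a description, not as support.

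The promoters are shown because 9 members varied together across the tumors in monocyte/macrophage-like cells, as described below, and because several members lie side by side. On GRCm38, Gbp5, Gbp7, Gbp3, Gbp2b and Gbp2 follow one another on the plus strand of chromosome 3 between positions 142493978 and 142638008. Gbp4 lies on the minus strand of chromosome 5 (105115767 to 105139586), where it overlaps Gbp8 and Gbp9, and Irgm1 on the minus strand of chromosome 11 (48861968 to 48871683). Igtp (58199556 to 58207591) and Irgm2 (58199618 to 58222782) overlap on the plus strand of chromosome 11, so UMIs from the shared stretch cannot be assigned with certainty. For Gbp4, 6.43% of the 50-base windows in the last 500 bases of its transcripts also occurred in other genes (Gbp6 and Gm43302), as did 3.99% for Irgm1 and 1.62% for Gbp5 and 0% for the other members, so their levels are less certain.

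RefSeq promoter windows (GRCm38.p6, 250 bases before to 50 after the start) were at hand for 8 of the 10 members and were searched on both strands for the letters TTCNNNGAA (GAS, N being any base) and for GAAA, any 2 bases and GAAA again (ISRE). They come to 9 windows, since Gbp3 has 2, of which 1 held neither match. Each of the 8 members held at least 1 ISRE match, against 3.44% of 32851 windows of the same length, and Gbp5, Gbp7, Igtp and Irgm2 held a GAS match as well, against 0.454% of windows with both and 8.30% with GAS. A match is a description of letters, and binding was not measured. The stretches below run 5′ to 3′ on the plus strand with the matches in capitals, and were chosen to show the ISRE of Gbp2 and Gbp2b, the 2 GAS and 1 ISRE of Gbp5 and of Gbp7, and the adjoining GAS and ISRE of Igtp and Irgm2. The stretches of Igtp and Irgm2 have the same base at 59 of 61 positions.
Gbp2, chr3:142620584-142620633: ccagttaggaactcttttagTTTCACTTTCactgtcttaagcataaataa
Gbp2b, chr3:142594690-142594739: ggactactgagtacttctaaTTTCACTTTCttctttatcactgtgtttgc
Gbp5, chr3:142496684-142496910: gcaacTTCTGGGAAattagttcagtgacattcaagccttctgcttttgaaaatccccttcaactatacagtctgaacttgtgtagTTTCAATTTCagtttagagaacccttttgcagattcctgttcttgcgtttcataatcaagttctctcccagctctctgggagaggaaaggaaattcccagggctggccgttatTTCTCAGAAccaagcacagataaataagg
Gbp7, chr3:142530210-142530312: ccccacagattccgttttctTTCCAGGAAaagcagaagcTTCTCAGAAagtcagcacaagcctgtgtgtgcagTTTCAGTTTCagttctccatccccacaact
Igtp, chr11:58199491-58199551: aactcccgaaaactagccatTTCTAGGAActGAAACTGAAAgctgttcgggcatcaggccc
Irgm2, chr11:58214882-58214942: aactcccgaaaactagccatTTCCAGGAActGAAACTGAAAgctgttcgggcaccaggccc

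The first question was whether the drug, free or on the polymer, changed the members in monocyte/macrophage-like cells, the largest class. UMIs were summed over the cells of a class in each tumor, given as CPM after TMM normalization, and compared with edgeR over all genes. None of the 10 members passed the test in any of the 3 comparisons, and tumors of the same treatment differed widely. Gbp2, the most abundantly counted member, stood at 221, 594 and 226 CPM in the 3 saline tumors, 861, 234 and 368 CPM after free R848, and 311 and 634 CPM after medium R848-BPDs. The 3 treatments overlapped, with 1 high tumor in each. Gbp5, which acts in inflammasome assembly, was measured at 96.6, 153 and 72.8 CPM after saline, 173, 71.8 and 117 CPM after free R848, and 78.1 and 137 CPM after medium R848-BPDs. Gbp4 gave 29.5, 94.3 and 35.6 CPM, then 182, 36.2 and 78.8 CPM, then 36.3 and 100.4 CPM in the same order. For both genes the high tumors were again saline replicate 2, free R848 replicate 1 and medium R848-BPD replicate 2.

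Gbp3 levels in these cells were 138, 244 and 103 CPM after saline, 304, 136 and 174 CPM after free R848, and 119 and 187 CPM after medium R848-BPDs. Gbp7 varied least among the Gbp genes, from 161 to 298 CPM over all 8 tumors. Gbp2b behaved otherwise than its neighbours on the chromosome. It was counted at 0.472, 83.9 and 1.12 CPM in the saline tumors, at 40.6, 6.49 and 6.95 CPM after free R848, and at 0.718 and 2.49 CPM after medium R848-BPDs. A single saline tumor thus held 579 of its UMIs, against 2 and 3 UMIs in the other saline tumors and 4 and 6 in the medium R848-BPD tumors. With so few UMIs in most tumors, its fitted fold change leaned on 1 tumor. For medium R848-BPDs against saline it was −4.51 with all tumors (edgeR adjusted p = 0.235). Without saline replicate 2 it was 0.80 (edgeR adjusted p = 0.828).

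Among the immunity-related GTPases, Irgm1 was measured at 236, 327 and 228 CPM after saline, 417, 259.7 and 297 CPM after free R848, and 292 and 461 CPM after medium R848-BPDs. Igtp stood at 127, 164 and 114 CPM after saline, 280.3, 142 and 201 CPM after free R848, and 189 and 263 CPM after medium R848-BPDs. Irgm2 reached 43.2, 75.8 and 52.1 CPM, 96.7, 55.7 and 78.4 CPM, and 85.8 and 128 CPM in that order. Both medium R848-BPD tumors lay above all 3 saline tumors for Igtp and Irgm2, whereas Irgm1 overlapped. Iigp1, the effector, showed the widest spread within saline: 48.4, 251 and 40.9 CPM, against 280.5, 100.4 and 138 CPM after free R848 and 130.3 and 295 CPM after medium R848-BPDs. Saline replicates 1 and 3 were the lowest of the 8 tumors, and saline replicate 2 was the third highest.

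**Figure D1:**
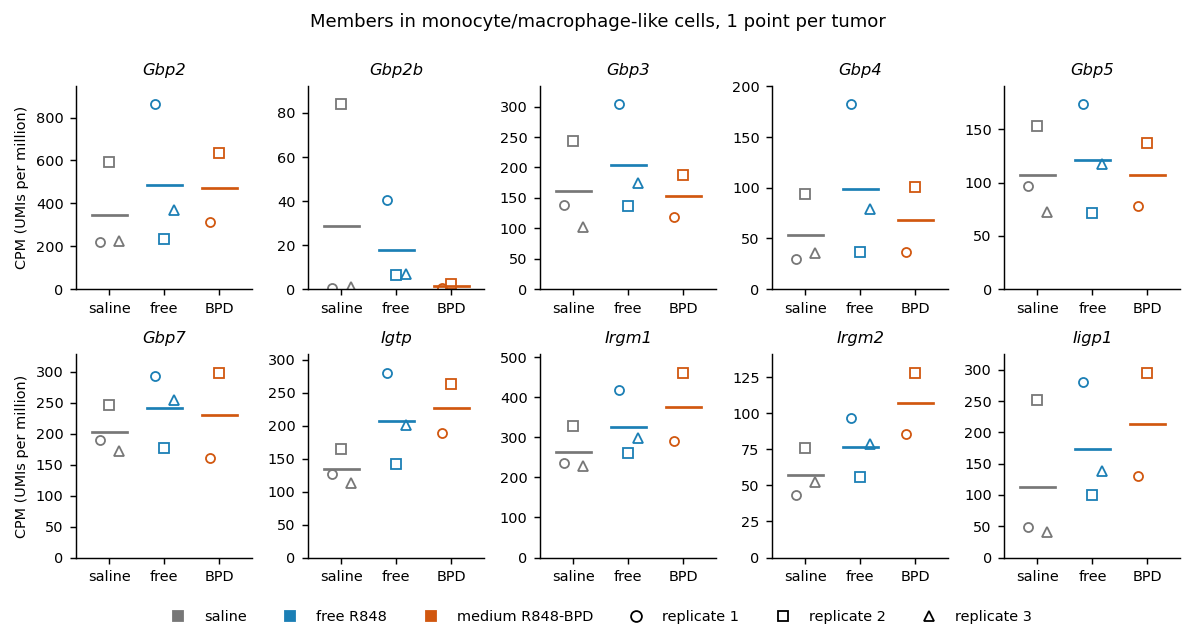
Level of each member (CPM, vertical axis from 0) in monocyte/macrophage-like cells, with 1 point per tumor, symbols for the replicate number and lines at the group mean for saline, free R848 and medium R848-BPD (BPD). In most panels 1 tumor of each group sits high, and Gbp2b is high in saline replicate 2 (83.9 CPM) and free R848 replicate 1 (40.6 CPM).

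In the test across all genes (edgeR quasi-likelihood F test, Benjamini-Hochberg adjustment, 0.05), 0 of 10 members were called between medium R848-BPDs and saline, where 7.42% of 10638 genes were called, and 2 had an unadjusted p under 0.05. These were Irgm2, with a log2 fold change of 0.88 ± 0.29 (SE; edgeR adjusted p = 0.103), and Igtp, with 0.74 ± 0.28 (edgeR adjusted p = 0.144). Between free R848 and saline 0 of 10 were called, against 0.0188% of all genes, and 1 member, Igtp, had an unadjusted p under 0.05. Between medium R848-BPDs and free R848, 0 of 10 were called, against 1.49% of all genes, and none had an unadjusted p under 0.05. DESeq2 also called 0 in each comparison. The median log2 fold change of the members was 0.36 for medium R848-BPDs and 0.38 for free R848 against saline, and −0.06 between the drug forms, with medians over all genes of −0.004 to −0.006. The 3 comparisons share samples.

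Leaving out saline replicate 2 moved these values. Iigp1 (log2 fold change 2.23, edgeR adjusted p = 0.0186) and Irgm2 (1.16, edgeR adjusted p = 0.0217) were then past the threshold for medium R848-BPDs against saline, as were 11.6% of all genes, and the median of the members was 0.85. Removing a saline tumor with high levels raises these differences by construction. Without free R848 replicate 1 instead, 0 members were called in each comparison of this class, against 4.53% of all genes (medium R848-BPDs against saline), 0.00939% (free R848 against saline) and 0.413% (between the drug forms). For free R848 against saline 0 members were called without saline replicate 2, against 1.16% of all genes, with a median of 0.77.

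The class holds macrophages and monocytes, and their proportions differed between tumors. Cells without the macrophage list numbered 208, 35 and 204 in the saline tumors, 72, 72 and 84 after free R848, and 53 and 47 after medium R848-BPDs. Levels of monocyte-only and macrophage-gated cells below are CPM without TMM normalization, unlike those of the whole class above. The monocyte-only cells, without the macrophage list, carried 506, 964 and 447 CPM of Gbp2 in the saline tumors, 1729, 367 and 668 CPM after free R848, and 496 and 502 CPM after medium R848-BPDs. Macrophage-gated cells had 146, 618 and 159 CPM, 771, 230.4 and 309.8 CPM, and 305 and 606 CPM. Gbp2 was thus higher in monocyte-only than in macrophage-gated cells of 7 of the 8 tumors, medium R848-BPD replicate 2 being the exception. Iigp1 did not keep 1 order. After free R848 it was higher in monocyte-only cells (303, 129.9 and 256 CPM) than in macrophage-gated cells (286, 101 and 115 CPM) of all 3 tumors, and after medium R848-BPDs lower (89.3 and 150.0 CPM, against 135 and 289 CPM). In saline replicate 2 it stood at 271 CPM in macrophage-gated and at 43.6 CPM in monocyte-only cells, where the other saline tumors had 40.2 and 31.2 CPM. The high Gbp2b of that tumor was likewise found in macrophage-gated cells (90.8 CPM, against 10.9 CPM in monocyte-only cells). The part of these proportions in the comparisons above was not tested.

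In DC-like cells members passed the test between treatments. Gbp2, Gbp3 and Gbp5 rose after medium R848-BPDs, and Gbp2 and Gbp5 after free R848, while the immunity-related GTPases did not pass the test. Gbp2 stood at 291, 310.3 and 253 CPM in the saline tumors, 780.4, 587 and 481 CPM after free R848, and 708 and 1103 CPM after medium R848-BPDs. Gbp5 was measured at 168, 256 and 203 CPM after saline, 641, 335 and 460.5 CPM after free R848, and 699 and 715 CPM after medium R848-BPDs. For these genes every treated tumor lay above every saline tumor, saline replicate 2 included. Gbp3 gave 54.2, 109.5 and 56.3 CPM after saline, 195, 103 and 90.7 CPM after free R848, and 175 and 242 CPM after medium R848-BPDs. Here the medium R848-BPD tumors lay above the saline tumors, whereas the free R848 tumors overlapped with them.

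Against saline, medium R848-BPDs raised Gbp5 by 1.84 ± 0.31 on the log2 scale (SE; edgeR adjusted p = 0.00259), Gbp2 by 1.67 ± 0.29 (edgeR adjusted p = 0.00317) and Gbp3 by 1.70 ± 0.39 (edgeR adjusted p = 0.0125). That is 3 of 9 members tested, all higher, where 5.91% of 4097 genes were called higher. With free R848 the log2 fold changes were 1.27 ± 0.29 for Gbp5 (edgeR adjusted p = 0.0307) and 1.13 ± 0.28 for Gbp2 (edgeR adjusted p = 0.0325), or 2 of 9 members, against 2.61% of genes called higher. DESeq2 called 3 and 2 members. With a replicate block, Gbp3 was not called for medium R848-BPDs (1.51, edgeR adjusted p = 0.0639), nor were Gbp2 (1.10, edgeR adjusted p = 0.0635) and Gbp5 (1.26, edgeR adjusted p = 0.0622) for free R848, although the labels pair no tumors. Under the block 4.56% of all genes were called for medium R848-BPDs and 0.830% for free R848. Gbp4, whose levels were 54.2, 128 and 28.1 CPM after saline, 188, 64.5 and 97.7 CPM after free R848, and 109 and 218 CPM after medium R848-BPDs, was not called (1.48 ± 0.52 for medium R848-BPDs, edgeR adjusted p = 0.0769). The median over the members was 0.80 and 0.22, against −0.01 for all genes in both comparisons.

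Between the drug forms, 0 of 9 members were called in DC-like cells by edgeR or DESeq2, against 0.220% of all genes, and 1 had an unadjusted p under 0.05. That member was Gbp7, at 41.8, 38.7 and 55.8 CPM after free R848 and 134 and 261 CPM after medium R848-BPDs, a log2 difference of 2.04 ± 0.47 (SE; edgeR adjusted p = 0.103). Saline tumors gave 123, 18.3 and 129 CPM of Gbp7, the low value resting on 1 UMI in the 12 cells of saline replicate 2. Without that tumor Gbp7 was called between the drug forms (2.03, edgeR adjusted p = 0.0288) and called lower after free R848 than after saline (−1.45, edgeR adjusted p = 0.0307), and Gbp4 was called higher after medium R848-BPDs than after saline (1.79, edgeR adjusted p = 0.0213). The shares of all genes called in either direction were then 0.535%, 11.3% and 16.4%. The regulators and the effector showed no such order. Irgm1 gave 279, 201 and 253 CPM after saline, 174, 251 and 97.7 CPM after free R848, and 166 and 248 CPM after medium R848-BPDs, and Irgm2 and Iigp1 likewise overlapped between all 3 treatments. Igtp overlapped between saline (36.5 to 129 CPM) and both drug forms.

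**Figure D2:**
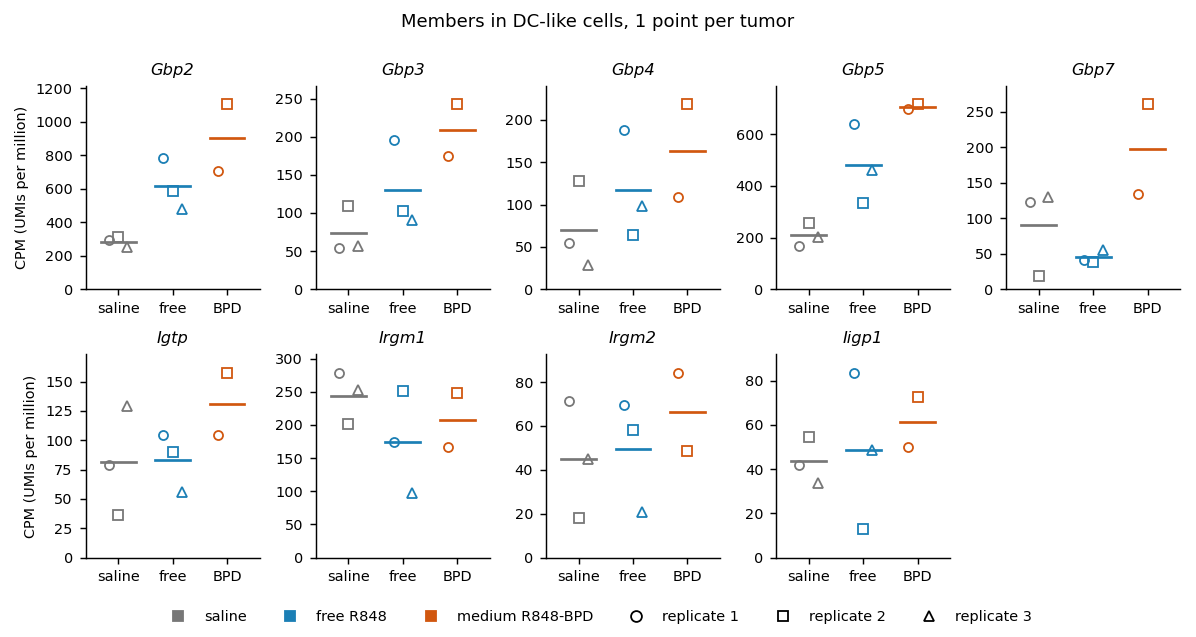
Level of 9 members (CPM, vertical axis from 0) in DC-like cells, with 1 point per tumor, symbols for the replicate number and lines at the group mean. Every treated tumor lies above every saline tumor for Gbp2 (253 to 310.3 CPM after saline, 481 to 1103 CPM after treatment) and Gbp5, while Irgm1 and Irgm2 overlap.

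The calls in DC-like cells depend on single tumors and on depth. Without 1 tumor at a time the medium R848-BPD comparison with saline gave 2 to 4 called members, Gbp3 being lost without medium R848-BPD replicate 2 or either of saline replicates 1 and 3 with log2 fold changes that stayed between 1.48 and 1.59, and Gbp4 being gained without free R848 replicate 1. Gbp7 was called between the drug forms without medium R848-BPD replicate 1 (2.51, edgeR adjusted p = 0.0362), where the lone medium R848-BPD tumor is assumed to vary like the other groups. The free R848 calls dropped to 0 without free R848 replicate 1 or 3, or saline replicate 1 or 3, with log2 fold changes that stayed between 0.94 and 1.32 for both genes. With only 12 cells taken from each tumor, 4 members could be tested (Gbp3 not among them) and 0 were called, but calls were then rare over all genes too (0.130% for medium R848-BPDs against saline and 0.846% for free R848 against saline). Against saline, the log2 fold changes of Gbp5 and Gbp2 were then 0.63 (edgeR adjusted p = 0.589) and 0.58 (edgeR adjusted p = 0.559) for medium R848-BPDs. For free R848 they were 1.02 (edgeR adjusted p = 0.218) and 0.89 (edgeR adjusted p = 0.192). The order of the drug forms was turned in this single random draw of cells. The differences between them were −0.39 (edgeR adjusted p = 0.962) and −0.31 (edgeR adjusted p = 0.964).

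The make-up of the DC-like class moved with treatment as well. Cells with a UMI of Ccr7, which marks mature, migrating dendritic cells, made up 64.2%, 75.0% and 72.6% of DC-like cells after saline, 96.4%, 83.3% and 88.2% after free R848, and 89.8% and 100% after medium R848-BPDs. Ccr7 is one of the gating markers, these shares are not thinned, and its level overlapped more: 1825, 2641 and 3628 CPM after saline, 5295, 3126 and 4688 CPM after free R848, and 4099 and 4236 CPM after medium R848-BPDs. Levels of the DC markers are CPM without TMM normalization. The saline tumors had 33.6 to 142 CPM of Clec9a and 45.8 to 142 CPM of Cd209a, markers of resting conventional dendritic cells, against 5.30 to 59.2 CPM and 0 to 29.6 CPM in treated tumors, so that Clec9a overlapped. The other DC markers overlapped too: Xcr1 was 33.6 to 106 CPM after saline and 0 to 118 CPM in treated tumors, Flt3 320 to 381 CPM and 313 to 641 CPM, and Zbtb46 67.3 to 122 CPM and 95.4 to 164 CPM. Most Gbp2 came from the Ccr7 cells: in saline tumors 175 UMIs were counted in 106 cells with a Ccr7 UMI and 5 UMIs in 49 cells without one. The part of this make-up in the calls was looked at only as follows.

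A comparison within cells that held a Ccr7 UMI was added after the data had been seen. Its levels are CPM without TMM normalization and cannot be set beside those of all DC-like cells above. In medium R848-BPD replicate 2 every DC-like cell held a Ccr7 UMI. The same 118 Gbp5 UMIs thus stand at 715 CPM above and at 626 CPM here. Gbp5 was 232, 307 and 213 CPM after saline, 574, 378 and 447 CPM after free R848, and 677 and 626 CPM after medium R848-BPDs. Saline and treated tumors still did not overlap. Gbp2 stood at 410.5, 372 and 309 CPM, 698, 667 and 467 CPM, and 682 and 965 CPM. Both were called for medium R848-BPDs against saline, with log2 fold changes of 1.45 (edgeR adjusted p = 0.0116) and 1.18 (edgeR adjusted p = 0.0257). Gbp3 was not (1.38, edgeR adjusted p = 0.0513). For free R848 neither Gbp5 (0.99, edgeR adjusted p = 0.0617) nor Gbp2 (0.77, edgeR adjusted p = 0.125) was called. Over all genes, 5.38% were called for medium R848-BPDs and 2.74% for free R848 in these cells. Saline replicate 2 entered with 9 such cells, and without it the calls were Gbp2, Gbp3 and Gbp5 for medium R848-BPDs and Gbp5 (1.07, edgeR adjusted p = 0.0251) and Gbp7 (−1.57, edgeR adjusted p = 0.0276) for free R848, as were 10.02% and 9.12% of all genes.

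In MC38-like cells, the malignant class, 9 of 9 members tested had a higher fitted level after medium R848-BPDs than after saline but 0 were called, and saline replicate 2 was as high as treated tumors for most of them. Gbp2 was 187, 608 and 286 CPM after saline, 656, 258 and 501 CPM after free R848, and 586 and 834 CPM after medium R848-BPDs. Gbp5 gave 56.6, 143 and 51.3 CPM after saline, 103, 57.0 and 80.6 CPM after free R848, and 153 and 210.3 CPM after medium R848-BPDs. Medium R848-BPD tumors were the highest of the 8 for Gbp5, and they overlapped with saline replicate 2 for Gbp2. Igtp stood at 153, 322 and 168 CPM after saline, 315, 171 and 245 CPM after free R848, and 269.6 and 486 CPM after medium R848-BPDs. Iigp1 was measured at 84.7, 224 and 121 CPM, 196, 74.9 and 132 CPM, and 145 and 266 CPM in that order. Each time saline replicate 2, free R848 replicate 1 and medium R848-BPD replicate 2 were the highest of their groups.

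For MC38-like cells, edgeR and DESeq2 called 0 of 9 members between medium R848-BPDs and saline, against 1.96% of 10501 genes, and 6 had an unadjusted p under 0.05. The largest difference was that of Gbp5 (log2 fold change 1.01 ± 0.32 SE, edgeR adjusted p = 0.148). Between free R848 and saline 0 of 9 were called, against 0% of all genes, and none had an unadjusted p under 0.05. Between medium R848-BPDs and free R848 0 of 9 were called by either tool, against 0.990% of genes, and 2 had an unadjusted p under 0.05, Gbp5 (1.18 ± 0.32, edgeR adjusted p = 0.0931) and Irgm2 (0.75 ± 0.25, edgeR adjusted p = 0.163). The members' medians were 0.60, −0.14 and 0.63, against medians over all genes of 0.003, −0.004 and −0.002.

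Leaving out saline replicate 2, whose members were high in this class too, brought 5 members past the threshold for medium R848-BPDs against saline (Gbp2, Gbp3, Gbp5, Gbp7 and Igtp, with log2 fold changes of 0.93 to 1.74), as it did 1.93% of all genes. These calls depend on the removal of high saline values, and with all tumors there were 0. Gbp5 was also past it between the drug forms (1.18, edgeR adjusted p = 0.0113), as were 1.45% of all genes. Leaving out medium R848-BPD replicate 1 instead gave 1 call against saline (Igtp), where 5.13% of all genes were called, and 2 against free R848 (Gbp5 and Irgm2), where 3.80% were, with the remaining tumor assumed to vary like the others.

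T-like and NK-like cells showed no call of a member. In T-like cells, of which a tumor gave 11 to 51, Gbp7 lay between 316 and 615 CPM and Gbp2 between 89.4 and 643 CPM, and 0 of 9 members were called in each comparison by edgeR or DESeq2, against 0% of 3915 genes for both drug forms against saline and 0.0255% between them. None had an unadjusted p under 0.05. In NK-like cells Gbp7 was measured at 278, 321 and 290.1 CPM after saline, 337, 269.8 and 324 CPM after free R848, and 245 and 225 CPM after medium R848-BPDs. Both medium R848-BPD tumors lay below the other 6, without a call (−0.38 ± 0.17 SE against free R848, edgeR adjusted p = 0.510). For Gbp4 they lay above the other 6, at 98.8 and 116.5 CPM, against 71.7 to 86.0 CPM. Between the drug forms 7 of 8 members had a higher fitted level after medium R848-BPDs. Among these were Gbp2 (0.91 ± 0.41) and Gbp3 (0.49 ± 0.22). Gbp2 was low, from 27.5 to 149.8 CPM, and Iigp1 had 0 to 38.0 CPM, the high value again in saline replicate 2. Of 8 members tested in NK-like cells, 0 were called by edgeR or DESeq2 between medium R848-BPDs and saline (0.682% of all genes), free R848 and saline (0.0122%) or the drug forms (0.256%), with 1, 0 and 3 under an unadjusted p of 0.05.

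**Figure D3:**
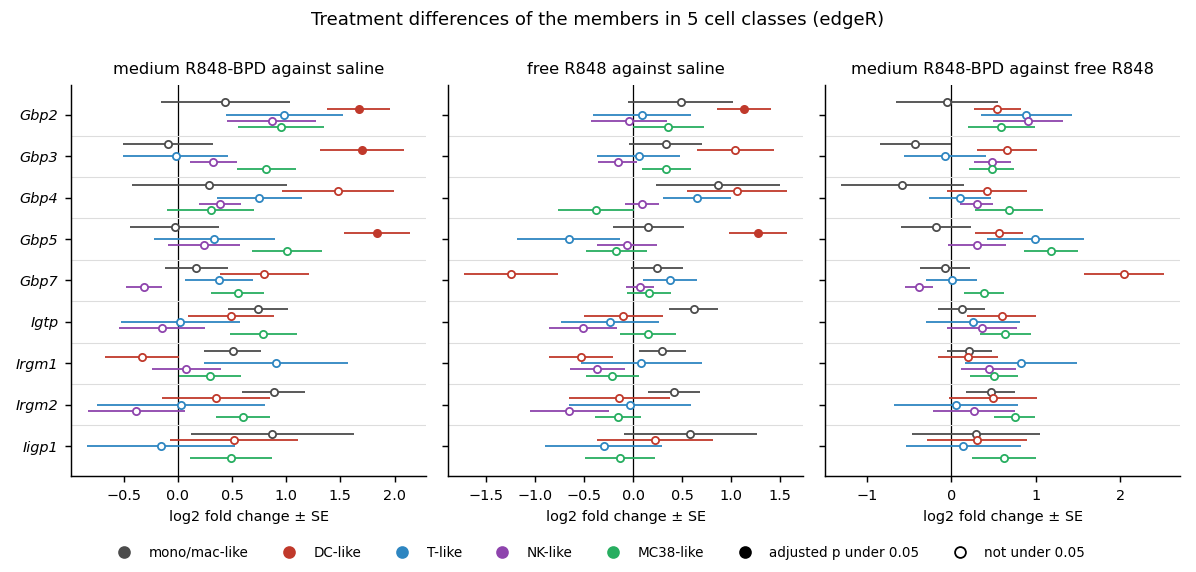
Log2 fold change of 9 members (horizontal axis, bars are standard errors from edgeR) in 5 cell classes for the 3 comparisons, filled where the adjusted p is under 0.05. Filled points appear in DC-like cells alone, for Gbp2, Gbp3 and Gbp5 after medium R848-BPDs and Gbp2 and Gbp5 after free R848.

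Whether the response differed among the 5 classes was tested directly, in a joint model that let the treatment effect vary by class and took each tumor as a block. For medium R848-BPDs against saline 1 of 9 members was called, against 5.31% of 9550 genes. This was Gbp5 (edgeR adjusted p = 0.00248), for which the separate fits gave log2 fold changes of 1.84 in DC-like cells, 1.01 in MC38-like cells, 0.34 and 0.24 in the T-like and NK-like classes, and −0.03 in monocyte/macrophage-like cells. Gbp3 followed without a call (edgeR adjusted p = 0.0771). For free R848 against saline 0 members were called, against 0.503% of genes, and 1 had an unadjusted p under 0.05 (Gbp5, edgeR adjusted p = 0.109), and between the drug forms 0 were called, against 0.618%, with 3 under an unadjusted p of 0.05. DESeq2 was not run on this design. The Gbp5 call was lost without medium R848-BPD replicate 1 (0 members called).

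Over all treatments, each member had its own order of classes, compared here within gene on a normalization shared by the 5 classes. Gbp5 was led by DC-like cells, with a mean of 459 ± 250.5 CPM (SD, n = 8 tumors), a median of 422 CPM and a range of 186 to 796 CPM. Monocyte/macrophage-like cells followed at 139 ± 47.7 CPM, MC38-like at 87.6 ± 47.3 CPM, T-like at 63.0 ± 24.1 CPM and NK-like at 43.7 ± 13.4 CPM. The step from DC-like to monocyte/macrophage-like cells was 1.68 ± 0.20 on the log2 scale (SE; edgeR adjusted p = 3.43e-09) and the step from there to MC38-like cells was called too, whereas those from MC38-like to T-like and from T-like to NK-like cells were not. For Gbp2 the means were 595 CPM in DC-like, 532 CPM in monocyte/macrophage-like and 401 CPM in MC38-like cells, with neither step called, then 238 CPM in T-like and 69.2 CPM in NK-like cells, both called. Gbp4 differed from the others in that MC38-like cells were lowest, at 27.7 ± 12.3 CPM, against 86.0 ± 12.5 CPM in NK-like cells (log2 difference 1.77, edgeR adjusted p = 1.00e-08), and the 4 immune classes, between 86.0 and 115 CPM, did not separate from their neighbours.

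Gbp7 was lowest in the class where Gbp5 was highest. T-like cells had the highest mean (379 ± 84.7 CPM), followed by NK-like (278 ± 39.3 CPM) and monocyte/macrophage-like cells (277 ± 66.8 CPM) with no called step, then MC38-like (205 ± 57.3 CPM) and DC-like cells (107 ± 84.5 CPM), with both of these steps called. Gbp3 was highest in MC38-like (256 ± 91.2 CPM) and monocyte/macrophage-like cells (217 ± 83.5 CPM), which did not separate. Among the regulators, Irgm1 was led by monocyte/macrophage-like cells, at 389 ± 101 CPM, above MC38-like cells at 232 ± 80.6 CPM (log2 difference 0.77, edgeR adjusted p = 0.000309). Igtp was alike in T-like (231 CPM), monocyte/macrophage-like (228 CPM) and MC38-like cells (218 CPM), with both steps not called, and Irgm2 was alike in MC38-like (102 CPM) and monocyte/macrophage-like cells (95.0 CPM). Iigp1 was led by monocyte/macrophage-like cells, at 198 ± 125 CPM, and fell to 51.8 ± 22.6 CPM in DC-like and 8.06 ± 11.8 CPM in NK-like cells, a called step of 2.94 ± 0.53 on the log2 scale (edgeR adjusted p = 1.06e-05). NK-like cells were the lowest class for all members tested but Gbp4 and Gbp7.

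**Figure D4:**
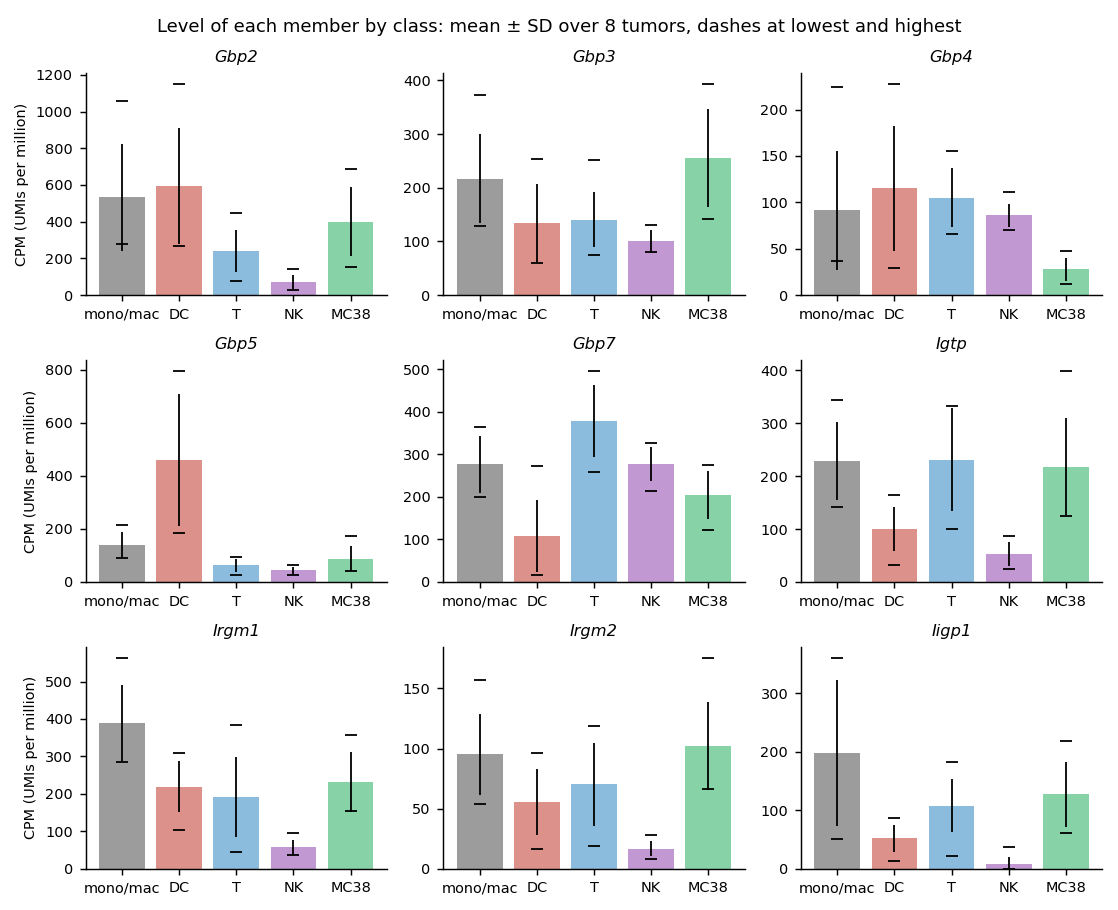
Level of 9 members (CPM, vertical axis from 0) in the 5 classes: bars are means over 8 tumors, lines are SDs and dashes mark the lowest and highest tumor. Gbp5 is highest in DC-like cells (459 CPM), Gbp7 in T-like cells (379 CPM) and Irgm1 in monocyte/macrophage-like cells (389 CPM), and NK-like cells are low for all but Gbp4 and Gbp7.

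Between whole classes most genes differ, so the counts of members are read against that share. Monocyte/macrophage-like cells were called higher for 5 of 9 members and lower for 1, Gbp5, than DC-like cells (46.6% of all genes called), higher for 5 than T-like cells (50.6%), for 7 than NK-like cells (70.2%) and for 5 than MC38-like cells (81.8%). DC-like cells were called higher for 2 and lower for 2 than T-like cells (45.3%), higher for 6 and lower for 1 than NK-like cells (61.0%), and higher for 3 and lower for 5 than MC38-like cells (73.5%). T-like cells were called higher for 5 than NK-like cells (17.9%), and higher for 2 and lower for 3 than MC38-like cells (60.4%). NK-like cells were higher for 2 and lower for 7 than MC38-like cells (71.7%). Without free R848 replicate 3, the members called between monocyte/macrophage-like and MC38-like cells fell from 5 to 3. Of all genes, 80.1% were then called in either direction, against 81.8% with all tumors.

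Cells that held several members at once were counted after thinning each cell to 1000 UMIs, which left out 1 to 20 monocyte/macrophage-like cells per treatment and 0 to 6 DC-like cells as too shallow. A UMI of 3 or more members was found in 11.3%, 27.4% and 9.45% of monocyte/macrophage-like cells after saline, 37.6%, 14.3% and 18.3% after free R848, and 13.7% and 27.2% after medium R848-BPDs. In MC38-like cells the shares were 9.03%, 33.2% and 7.46%, then 33.9%, 12.6% and 20%, then 25.4% and 41.4%. Treatments overlapped in both classes. In DC-like cells they were 6.17%, 8.33% and 7.14% after saline, 17.9%, 8.33% and 5.88% after free R848, and 22.7% and 40.0% after medium R848-BPDs, the last without overlap with the other treatments. NK-like cells, where most members were low, held 1.20% to 8.47%, with median depths before thinning of 5736.5 UMIs, against 5073 in monocyte/macrophage-like and 4168 in DC-like cells. Means without thinning were 56.2%, 69.8% and 74.6% for saline, free R848 and medium R848-BPDs in monocyte/macrophage-like cells and 29.7%, 52.2% and 74.7% in DC-like cells. With 2 tumors against 3 no exact permutation test can go below 0.1, so no test was made.

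Gbp2b marked few cells. At 1000 UMIs it was found in 69 of 945 monocyte/macrophage-like cells of saline replicate 2 (7.30%) and in 14 of 516 of free R848 replicate 1 (2.71%), and in 0 to 4 cells of each other tumor. At that depth it was counted in 0 of 761 cells of saline replicate 1, which allows up to 0.394%, and in 0 of 684 of medium R848-BPD replicate 1, which allows up to 0.439%. These limits cover counting error and cells with a UMI at the thinned depth only, since before thinning the same cells held 2 and 4 UMIs of Gbp2b. No T-like or NK-like cell held a UMI of it at that depth. Without thinning its mean share was 7.48% after saline, 5.43% with free R848 and 0.814% with medium R848-BPDs, with SDs over tumors of 12.5, 5.18 and 0.325.

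**Figure D5:**
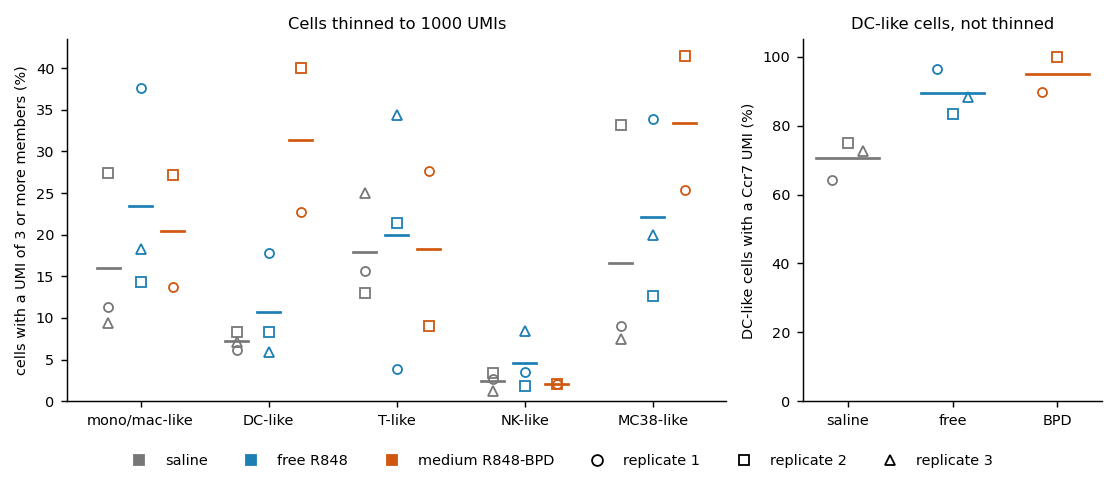
Left, percentage of cells with a UMI of 3 or more members after thinning to 1000 UMIs in 5 classes, and right, percentage of DC-like cells with a Ccr7 UMI. Points are tumors, lines are group means, and the medium R848-BPD tumors (22.7% and 40.0%) lie above the others in DC-like cells on the left, while all treated tumors (83.3% to 100%) lie above saline on the right.

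The genes upstream of the members were looked at in the same tests. Ifng itself was counted almost wholly in lymphocytes: 38.1, 36.3 and 211 CPM in NK-like cells after saline, 37.0, 43.6 and 43.0 CPM after free R848, and 46.1 and 108 CPM after medium R848-BPDs, and 19.5 to 229 CPM in T-like cells, with at most 3 UMIs in the DC-, MC38- or monocyte/macrophage-like cells of any tumor. Ifngr1, the ligand-binding chain, ran from 418 to 595 CPM in NK-like and from 575 to 903 CPM in T-like cells, against 80.9 to 173 CPM in monocyte/macrophage-like and 32.3 to 68.3 CPM in MC38-like cells. Ifngr2, the signalling chain, ran the other way between lymphocytes and monocyte/macrophage-like cells. It stood at 188 to 244 CPM in monocyte/macrophage-like, 109.5 to 255 CPM in DC-like and 42.0 to 75.0 CPM in MC38-like cells. T-like cells had 0 to 95.7 CPM and NK-like cells 2.65 to 8.64 CPM.

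In DC-like cells Irf1 stood at 375, 511 and 236 CPM after saline, 906, 645 and 858 CPM after free R848, and 836 and 661 CPM after medium R848-BPDs, with log2 fold changes of 1.17 ± 0.28 for free R848 (edgeR adjusted p = 0.0322) and 1.07 ± 0.30 for medium R848-BPDs (edgeR adjusted p = 0.0335). In the other classes it was not called. Of 11 tested genes of the interferon-gamma pathway list in DC-like cells, 2 were called higher after free R848, Irf1 and Irf8 (0.91 ± 0.25, edgeR adjusted p = 0.0452), and after medium R848-BPDs 1 was called higher, Irf1, and 1 lower, Ciita, the activator of MHC class II genes. Over all genes, 2.61% were called higher after free R848, and 5.91% higher and 5.39% lower after medium R848-BPDs. Ciita gave 177, 219 and 158 CPM after saline, 13.9, 135 and 76.7 CPM after free R848, and 52.4 and 24.2 CPM after medium R848-BPDs, a change of −2.06 ± 0.53 for the latter (edgeR adjusted p = 0.0225).

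In monocyte/macrophage-like cells single genes of the pathway lists were called for medium R848-BPDs against saline, where 7.42% of all genes were called, so nothing is read from these counts. Of 12 tested genes of the interferon-gamma list 1 was called, lower after medium R848-BPDs than after either saline or free R848: Ciita, with 2 UMIs in one medium R848-BPD tumor and 0 in the other, against 29 to 261 UMIs in saline tumors and 47 to 108 after free R848. Of 6 type I interferon genes 1 was called, Tyk2, a receptor kinase, which fell by 0.68 ± 0.12 on the log2 scale after medium R848-BPDs against saline (edgeR adjusted p = 0.0136). Of 15 partners of the GTPases in vacuole marking and the inflammasome 1 was called, Atg5, a core autophagy gene, at 45.6, 47.2 and 46.5 CPM after saline, 47.8, 46.1 and 44.8 CPM after free R848, and 82.8 and 81.3 CPM after medium R848-BPDs (0.82 ± 0.11 against saline, edgeR adjusted p = 0.00426). The replicates of Atg5 thus lay within a few CPM of each other in tumors where Gbp2 differed several times over. Of 10 other interferon-inducible GTPases 0 were called in any comparison of these cells by edgeR.

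Casp4, the caspase that senses lipopolysaccharide freed by Gbp proteins, was called higher after medium R848-BPDs than after saline in DC-like cells (1.61 ± 0.37, edgeR adjusted p = 0.0134) and in MC38-like cells (0.71 ± 0.15, edgeR adjusted p = 0.0300). It was the 1 called gene of 9 partners tested in the former and of 15 in the latter, where 5.91% and 0.781% of all genes were called higher, and it was named after its values were seen. It stood at 39.4, 54.8 and 56.3 CPM in DC-like cells after saline, at 55.7, 38.7 and 69.8 CPM after free R848, and at 162 and 121 CPM after medium R848-BPDs. In MC38-like cells Mx1 (1.53 ± 0.36, edgeR adjusted p = 0.0479), Mx2 (1.84 ± 0.43, edgeR adjusted p = 0.0438) and Irf7 (0.75 ± 0.18, edgeR adjusted p = 0.0498), were also called higher after medium R848-BPDs than after saline. That is 2 of 8 other interferon-inducible GTPases and 1 of 6 type I interferon genes tested, and these names were chosen after their values were seen. Mx1 was 68.0 and 228 CPM in the medium R848-BPD tumors, against 48.9 to 63.7 CPM after saline, so the call leaned on medium R848-BPD replicate 2.

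Across the 40 tumor-by-class sums, the genes whose log2 CPM was most like the mean of 9 members, among 6822 genes ranked, were Parp9 (Pearson r = 0.85), Parp12 (0.84), Ddx60 (0.83), Zbp1 (0.82) and Xaf1 (0.81), all known as interferon-stimulated. The sums share tumors and libraries, and classes set much of the spread. Within the 8 sums of monocyte/macrophage-like cells the correlations were 0.88, 0.38, 0.33, 0.72 and 0.68. In these 8 sums the correlation of a member with the mean of the others ran from 0.82 for Irgm2 to 0.98 for Gbp2 over the 9 members in that mean, and it was not computed for Gbp2b.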

How the data were processed

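Seq-Well libraries came from 8 MC38 tumors taken 24 hours after dosing. What the authors deposited for each tumor is a table of UMI counts, gene symbols by barcodes, with no normalization. The submitters' processing notes name bcl2fastq and mm10, and the aligner and annotation are not given in the sources used here. The members and gene lists were chosen with earlier results of these data known.

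A cell was kept when it had over 400 but under 10000 genes, under 50000 UMIs and no more than 15% of them mitochondrial. Libraries held 5867590 to 12422614 UMIs, and limits on shares cover counting error only. Classes were gated on summed marker UMIs per 10000 (MC38 8, T 3, NK 3, DC 4, macrophage 15, monocyte 6, neutrophil 20, fibroblast 50, osteoclast 100). Thresholds were set on marker distributions without the members, and 59, 47, 24, 11 and 6 cells of the monocyte/macrophage-, MC38-, NK-, DC- and T-like classes lay within 25% above theirs. Cells with markers of several classes were set aside as possible doublets, and no doublet caller was run. A class needed at least 10 cells in a tumor.

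Counts were summed per tumor and class and tested with edgeR 4.0.16 (filterByExpr, TMM, quasi-likelihood F test, Benjamini-Hochberg adjustment over all genes tested) in R 4.3.3, and a standard error is a log2 fold change divided by the root of its F statistic. Nothing in the labels pairs tumors across groups, and p-values measure the spread between mice within a group. The correlation of same-numbered tumors' deviations from group means ran from −0.28 to 0.24, so no block was used. DESeq2 1.42.0 was an alternative, and the others are given with their effects. The scripts were tested on simulated data.

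All 10 members are described. From each of 4 lists, up to 3 called genes with the largest change in monocyte/macrophage-like cells are named, and the 5 genes with the highest correlation. Ifng and Ifngr2 are given in every class, Ifngr1 in all but DC-like cells, and levels of Irf1 in DC-like cells only. Another gene that this rule names is not reported here. Irf8, Ciita in DC-like cells, Casp4, Mx1, Mx2, Irf7, Ccr7, Clec9a and Cd209a were named after their values were seen. Positions come from GENCODE vM21. Python 3.11.15, numpy 2.4.6, pandas 2.3.3 and matplotlib 3.10.9 were also used.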

Additional observations from a re-analysis of the deposited data

Results flagged for a closer look

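Gbp5 was singled out because its response to medium R848-BPDs against saline differed among the 5 classes in the test of the difference itself (class-by-treatment term, edgeR adjusted p = 0.00248), where 5.31% of 9550 genes and 1 of 9 members were called. With medium R848-BPD replicate 1 left out it was no longer called. The log2 fold change was 1.84 ± 0.31 (SE) in DC-like cells, 1.01 ± 0.32 in MC38-like cells and −0.03 ± 0.41 in monocyte/macrophage-like cells. With 12 cells drawn from each tumor, it was 0.63 in DC-like cells (edgeR adjusted p = 0.589). The share of DC-like cells with a Ccr7 UMI was 64.2% to 75.0% after saline and 89.8% and 100% after medium R848-BPDs. In DC-like cells both medium R848-BPD tumors (699 and 715 CPM) lay above all 3 saline tumors (168, 256 and 203 CPM), while in monocyte/macrophage-like cells the treatments overlapped. Single tumors were not tested as outliers, since groups of fewer than 4 were left out of that test. The tumors whose members were high within their group are described with the libraries.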

How the results depend on the processing

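Of the comparisons of members called in T-like and NK-like cells, none changed under any alternative run. Without a filter on low counts, members called were 4, 4 and 2 in monocyte/macrophage-like cells (medium R848-BPDs against saline, free R848 against saline, medium R848-BPDs against free R848), 7 and 8 in MC38-like cells for medium R848-BPDs against saline and against free R848, and 1 in DC-like cells between the drug forms. In these fits 8.50%, 2.91% and 4.54% of all genes were called in monocyte/macrophage-like, 3.45% and 2.84% in MC38-like and 0.632% in DC-like cells, and the cause was not tested. With only the 2 groups compared in the fit, 1 member was called between the drug forms in DC-like and 1 in MC38-like cells (0.749% and 0.636% of all genes). With the same number of cells per tumor (12 in DC-like cells), 0 were called in DC-like cells against saline for medium R848-BPDs and 0 for free R848, with fewer genes tested and 0.130% and 0.846% of all genes called. Among DC-like cells with a Ccr7 UMI, 0 members were called for free R848 against saline (2.74% of all genes), and, in tumors with at least 10 such cells, 1 between the drug forms (0.706%). Stricter gates gave 2 members whose response to medium R848-BPDs against saline differed among classes (4.53% of all genes). These alternatives and RLE size factors, DESeq2, looser gates and cells with shared barcodes kept (added after the data were seen) left the other counts within 1.5 times.

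Tumors share replicate numbers without being paired. With a replicate block 2 members were called in DC-like cells for medium R848-BPDs against saline and 0 for free R848 (4.56% and 0.830% of all genes), and no call was changed elsewhere. Leaving out 1 tumor at a time moved the share of all genes called as well, from 1.04% to 11.6% for medium R848-BPDs against saline in monocyte/macrophage-like cells, from 2.36% to 16.4% in DC-like and from 0.455% to 5.13% in MC38-like cells, and from 0% to 11.3% for free R848 against saline in DC-like cells. Between the drug forms it ran from 0.0240% to 0.709% in DC-like and from 0.213% to 3.80% in MC38-like cells, between monocyte/macrophage- and MC38-like cells from 79.4% to 80.8%, and for responses that differ among classes from 1.40% to 7.35% (medium R848-BPDs against saline) and from 0.0933% to 1.42% (between the drug forms). Members called ranged from 0 to 2 in monocyte/macrophage-like cells (medium R848-BPDs against saline), from 2 to 4, 0 to 3 and 0 to 1 in DC-like cells, from 0 to 5 and 0 to 2 in MC38-like cells (medium R848-BPDs against saline and against free R848), from 3 to 6 between monocyte/macrophage- and MC38-like cells, and from 0 to 2 for a response that differs among classes, both for medium R848-BPDs against saline and against free R848.

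Shares of cells with 3 or more members rose with depth in every treatment (saline, free R848, medium R848-BPDs). Thinned to 2000 UMIs they were 32.1%, 44.1% and 40.1% in monocyte/macrophage-like, 14.7%, 27.5% and 51.4% in DC-like and 37.3%, 44.5% and 59.6% in MC38-like cells. Without thinning they were 56.2%, 69.8% and 74.6%, then 29.7%, 52.2% and 74.7%, then 76.5%, 85.2% and 91.8%, and those of Gbp2b in monocyte/macrophage-like cells were 7.48%, 5.43% and 0.814%. Of the values of single members under the alternatives, 2238 kept their side of the threshold, 50 passed it and 22 no longer did. Groups held 2 or 3 tumors, T-like cells numbered 11 to 51 a tumor and DC-like cells 12 in saline replicate 2, and the size of difference that could be detected was not measured.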

Other observations

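Small classes that entered no comparison also held the members. Neutrophil-like cells reached 10 cells in free R848 replicate 3 alone (26 cells), where they carried 1172 CPM of Gbp2, 539.8 CPM of Irgm1 and 382 CPM of Igtp, and 0 UMIs of Gbp2b. Osteoclast-like cells, gated on Ctsk, Acp5 and Mmp9, reached 10 cells in free R848 replicate 2 (41 cells) and saline replicate 3 (61 cells), the other tumors having 0 to 8. Their Gbp2 was low, at 153 and 24.7 CPM, and Iigp1 stood at 41.1 and 3.80 CPM, while Gbp7 was 465 and 353 CPM. In macrophage-gated cells of the same tumors Gbp2 was 230.4 and 159 CPM and Gbp7 173 and 146 CPM. These are values of single tumors, as CPM without TMM normalization, with no test.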
